A study of Mus musculus with 24 samples.

Results

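The genes described here encode a postsynaptic complex: Grm5, a metabotropic glutamate receptor, Shank1, Shank2 and Shank3, Dlgap1, Dlgap2 and Dlgap3, and Dlg4. They were chosen by name. Every probe set whose only gene symbol was one of these 8 was taken, which gave 15 of the 45037 probe sets tested and 7 of the 18193 genes with a probe set of 1 symbol. Dlgap1 had 6 probe sets, Dlg4 had 3, Grm5 had 2, and Shank1, Shank3, Dlgap2 and Dlgap3 had 1 each. Shank2 is not analysed here.

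RNA of male mice of about 12 weeks was hybridised to 24 short-oligonucleotide arrays, and values are log2 RMA intensities. All mice were taken 6 h after light onset, having been kept awake by gentle handling for those 6 h or left undisturbed. The pull-down arrays (6 after sleep deprivation, 6 controls) hold polyadenylated RNA that anti-FLAG beads recovered from formaldehyde-fixed brains by mRNA tagging, and the labels call its source Homer1a-expressing cells. The 4 supernatants hold total RNA left after the pull-down, and the whole-brain arrays (4 after sleep deprivation, 4 controls) hold total RNA of brains for which the labels describe no fixation. The sources used here do not give the strain, the tagged transgene or its promoter. The labels of supernatant 13 contradict each other on sleep deprivation, so the supernatants were kept as 1 group. Supernatant 13 carries the same number as pull-down control 13, no other supernatant shares one with a pull-down array, and the labels state no pairing. The p-values measure the spread between these arrays.

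The mGlu5 receptor, the product of Grm5, couples to Gq proteins and phospholipase C and so releases calcium from internal stores when glutamate binds. Its intracellular tail carries a short motif that Homer proteins bind. The long Homer forms join into multimers that tie the receptor to Shank proteins, the master scaffolds of the deep postsynaptic density, while Homer1a lacks the joining domain and loosens that link. Shank proteins bind the tails of the GKAP or SAPAP proteins (the Dlgap genes), which in turn bind the guanylate kinase domain of the scaffold that Dlg4 encodes, and that scaffold holds NMDA receptors and AMPA receptor auxiliary subunits at excitatory synapses.

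The pull-down arrays differed from both references as whole arrays. The median of a pull-down array lay between 4.37 and 5.70, against 6.10 to 6.22 in supernatant and 6.04 to 6.24 in whole brain. The difference between the 3′ and 5′ probe sets of Gapdh averaged 4.92 ± 0.78 over the 12 pull-down arrays, 2.43 ± 0.13 over the 4 supernatants and 2.75 ± 0.16 over the 8 whole-brain arrays (SD). The 15 probe sets also varied more in pull-down, with a median SD of 0.68, than in supernatant (0.29) or whole brain (0.14), and the fit shares 1 estimate of the spread over all groups. Array 1 of the sleep-deprived pull-down and array 3 of its controls stood apart. Each lay above the mean of the 12 pull-down arrays at 14 of the 15 probe sets, by a median of 1.39 and 0.93, and they had the highest signals for 18S ribosomal RNA among the pull-downs (11.04 and 11.14, where the lowest was 6.83). Pull-down control 11, which had the highest array median and the smallest SD of its values (1.61), was the highest pull-down array at 3 probe sets and the lowest at 6.

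Transcripts of the complex were mostly lower in the pull-down than in either reference. Against whole brain, 11 of the 15 probe sets (73.3%) were lower and 0 higher at an adjusted p under 0.05 (limma, Benjamini-Hochberg over all probe sets). Of all probe sets tested, 76.3% were lower and 8.06% higher in that comparison, so the share of lower calls was near the background. At an unadjusted p under 0.05, 12 of the 15 were lower and 0 higher, beside 77% and 8.16% of all probe sets. Against supernatant, 13 (86.7%) were lower and 1 higher, beside 67.4% and 11.2% of all probe sets. The median difference of the 15 was -1.37 from whole brain, where the median of all was -0.78, and -1.56 from supernatant, where the median of all was -0.85. Lower than both references were 11 of 15 (65.8% of all), and higher than both were 0 (7.46%). In these bulk extracts, fewer cells of a type and less RNA per cell cannot be told apart. The array-wide difference between pull-down and references is part of each of these values as deposited.

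**Figure D1:**
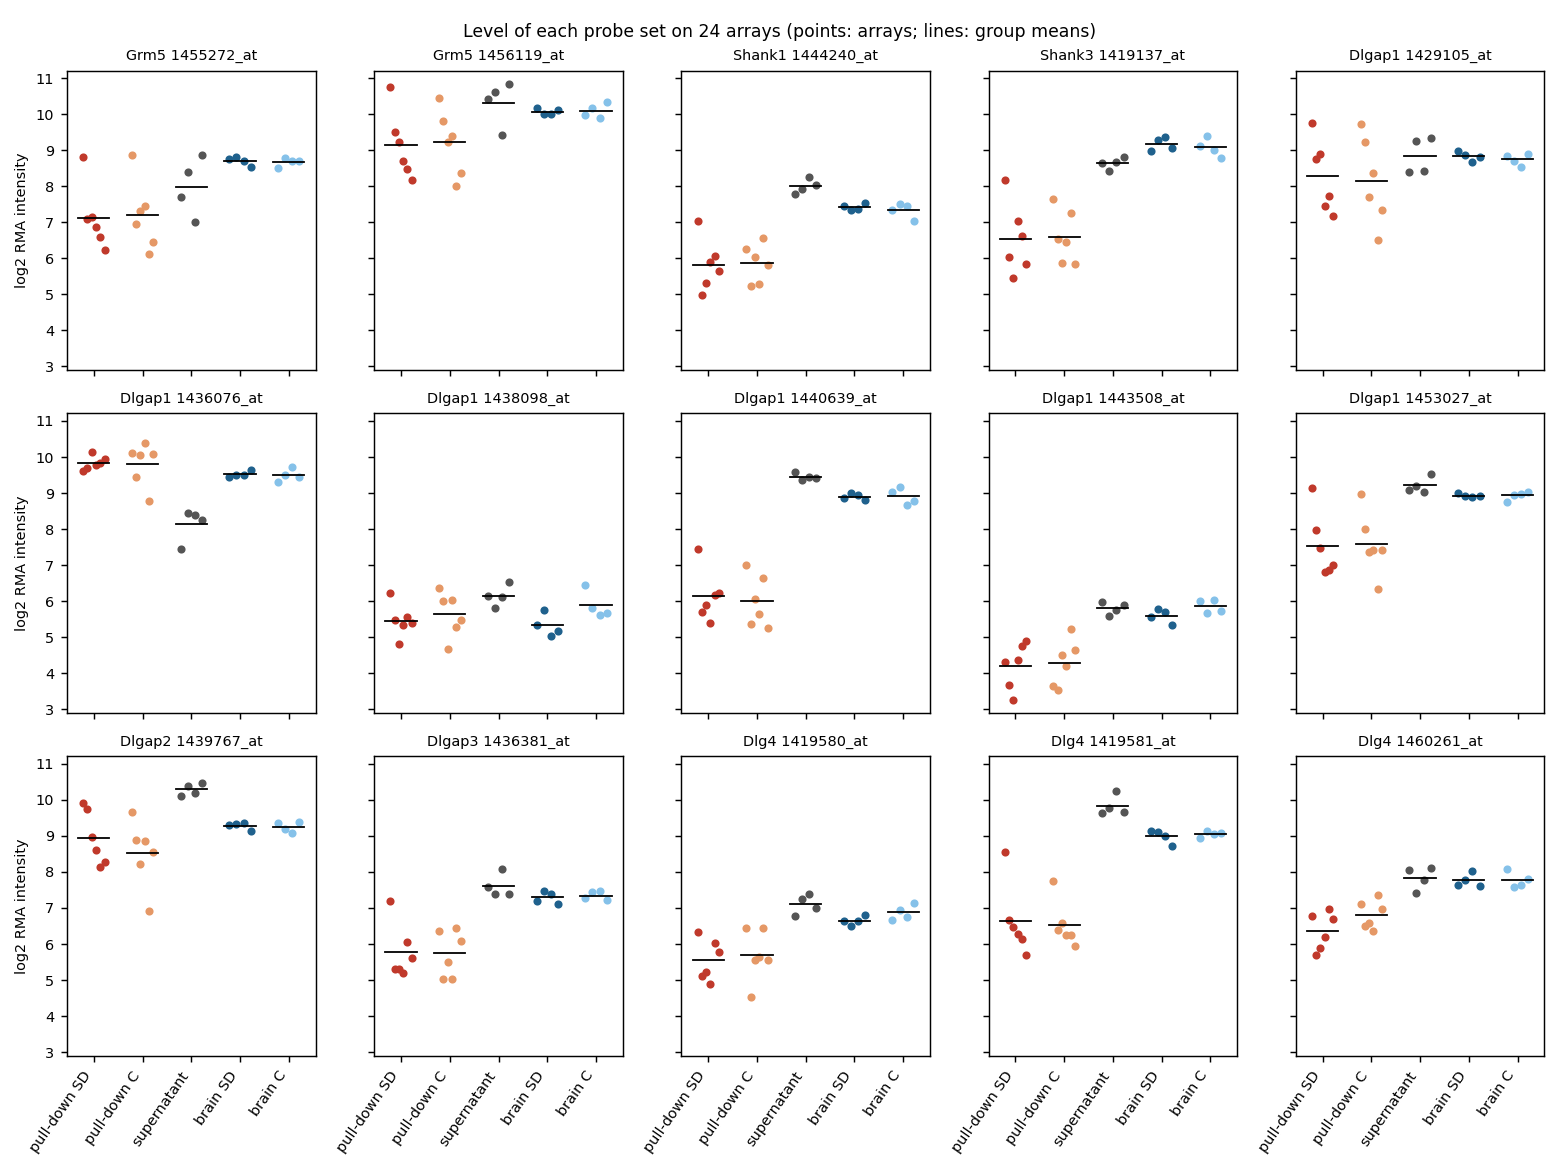
Log2 RMA intensity (vertical axis) of the 15 probe sets in the 5 groups (horizontal axis); each point is 1 array, each line a group mean, SD is after sleep deprivation and C is control. The pull-down points spread most and lie mostly below both references; Dlgap1 1436076_at is the exception, with all 12 pull-down arrays above all 4 supernatants.

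Both probe sets of the receptor were lower in the pull-down as deposited, though centring each array on its median turned Grm5 1456119_at to 0.26 from whole brain and 0.034 from supernatant, and Grm5 1455272_at to 0.34 from supernatant. For Grm5 1456119_at, pull-down after sleep deprivation ranged from 8.18 to 10.74 with a median of 8.97, and pull-down control from 8.01 to 10.46 with a median of 9.32. The supernatants read 10.42, 10.61, 9.42 and 10.83 (arrays 13 to 16), whole brain after sleep deprivation 10.16, 10.01, 10.00 and 10.11 (arrays 18 to 21), and whole-brain control 9.97, 10.16, 9.90 and 10.33 (arrays 22 to 25). The pull-down arrays overlapped both references, and the 2 arrays that stood apart were the highest of their groups. The difference was -0.90 ± 0.29 (SE) from whole brain (limma adjusted p = 0.00616) and -1.14 ± 0.37 from supernatant (adjusted p = 0.0065). Whole brain minus supernatant, -0.24 ± 0.39, did not pass the test (adjusted p = 0.794).

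For Grm5 1455272_at, pull-down after sleep deprivation ranged from 6.22 to 8.81 (median 6.98) and pull-down control from 6.12 to 8.87 (median 7.14). The supernatants read 7.70, 8.40, 7.01 and 8.86, and the 8 whole-brain arrays lay between 8.52 and 8.82. The whole-brain arrays lay close together, and all 4 supernatants lay within the range of the pull-down arrays. The pull-down was lower than whole brain by -1.53 ± 0.30, a fold of 2.89 (adjusted p = 5.65e-05), and lower than supernatant by -0.84 ± 0.38 (adjusted p = 0.0483). That last call was lost when any 1 of 13 of the 16 compared arrays was left out, with the adjusted p reaching 0.234 without supernatant 16. Without the 3 pull-down arrays that stood apart, the difference from supernatant was -1.08 ± 0.25 (adjusted p = 0.000289). Those arrays stood apart partly by the values of the members themselves. Leaving them out narrows the spread by that choice, so this p-value does not strengthen the call.

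Both Shank probe sets were lower in the pull-down than in either reference. Shank1 1444240_at measures a scaffold whose mRNA is known to travel into dendrites. It ranged from 4.98 to 7.04 (median 5.77) in pull-down after sleep deprivation and from 5.24 to 6.56 (median 5.92) in pull-down control. The supernatants read 7.80, 7.92, 8.27 and 8.02, whole brain after sleep deprivation 7.45, 7.34, 7.36 and 7.53, and whole-brain control 7.34, 7.52, 7.46 and 7.03. All pull-down arrays lay below all supernatants, and a single pull-down array, number 1 after sleep deprivation, reached the lowest whole-brain value. The difference was -1.53 ± 0.20 from whole brain (adjusted p = 2.09e-07) and -2.16 ± 0.26 from supernatant, a fold of 4.46 (adjusted p = 4.92e-08). Every supernatant lay above every whole-brain array as well, but that difference did not pass the test (whole brain minus supernatant -0.62 ± 0.27, adjusted p = 0.168).

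Shank3 1419137_at measures the family member whose loss in people causes Phelan-McDermid syndrome. It ranged from 5.47 to 8.18 (median 6.32) in pull-down after sleep deprivation and from 5.85 to 7.66 (median 6.49) in pull-down control. The supernatants read 8.64, 8.41, 8.68 and 8.81, whole brain after sleep deprivation 8.97, 9.30, 9.36 and 9.07, and whole-brain control 9.11, 9.39, 9.02 and 8.79. No pull-down array reached either reference. The difference was -2.56 ± 0.26 from whole brain, a fold of 5.91 (adjusted p = 2.64e-09), and -2.07 ± 0.33 from supernatant (adjusted p = 4.59e-06). Unlike Shank1, the mean in whole brain was above that in supernatant, by 0.49 ± 0.36, which did not pass the test (adjusted p = 0.47). Its SE comes from the 1 spread shared by all groups. The SD was 0.83 in pull-down, 0.21 in whole brain and 0.17 in supernatant.

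The Dlgap genes encode the adaptors between Shank and the Dlg4 product, and the 6 probe sets of Dlgap1 did not move as 1. Dlgap1 1440639_at had the largest difference of the 15. It ranged from 5.39 to 7.46 (median 6.03) in pull-down after sleep deprivation and from 5.27 to 7.00 (median 5.85) in pull-down control. The supernatants read 9.57, 9.37, 9.43 and 9.42, and the 8 whole-brain arrays lay between 8.68 and 9.16. The pull-down arrays were below all arrays of both references. The difference was -2.84 ± 0.22 from whole brain, a fold of 7.14 (adjusted p = 2.2e-11), and -3.38 ± 0.28 from supernatant, a fold of 10.4 (adjusted p = 1.14e-10).

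Dlgap1 1436076_at went the other way. It ranged from 9.62 to 10.14 (median 9.81) in pull-down after sleep deprivation and from 8.78 to 10.39 (median 10.07) in pull-down control. The supernatants read 7.44, 8.44, 8.39 and 8.25, whole brain after sleep deprivation 9.45, 9.49, 9.49 and 9.65, and whole-brain control 9.32, 9.50, 9.72 and 9.43. All pull-down arrays were above all supernatants, and 10 of 12 were above the whole-brain mean. The pull-down was higher than supernatant by 1.69 ± 0.22, a fold of 3.23 (adjusted p = 1.86e-07). From whole brain it differed by 0.32 ± 0.17, which did not pass the test (adjusted p = 0.0922), and it passed when pull-down control 11, its lowest array, was left out (0.42, adjusted p = 0.00797). Leaving out the lowest array raises the pull-down mean and narrows the spread by that choice, so this p-value does not establish a call. Whole brain was also above supernatant here, by 1.38 ± 0.23 (adjusted p = 0.00021), the single probe set of the 15 that passed between the references, beside 8.89% of all probe sets that were higher and 2.01% that were lower in whole brain.

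The other probe sets of Dlgap1 lay between these. Dlgap1 1453027_at was lower in the pull-down by -1.37 ± 0.27 from whole brain (adjusted p = 4.88e-05) and -1.65 ± 0.34 from supernatant (adjusted p = 9.99e-05). Dlgap1 1443508_at, which had pull-down arrays between 3.27 and 5.22 and whole-brain arrays between 5.35 and 6.04, was lower by -1.48 ± 0.21 and -1.56 ± 0.26 (adjusted p = 4.04e-07 and 7.38e-06). Dlgap1 1429105_at passed neither comparison, with -0.57 ± 0.33 from whole brain (adjusted p = 0.112) and -0.63 ± 0.42 from supernatant (adjusted p = 0.171). It had the widest pull-down spread of the 15, from 6.50 to 9.76, with pull-down control 11 at the bottom and the 2 arrays that stood apart, at 9.76 and 9.74, at the top, and the difference from whole brain passed without either of these (-0.72 and -0.73, adjusted p = 0.0362 and 0.03). Without those 3 arrays it was lower than both references on the deposited scale, by -0.71 ± 0.25 (adjusted p = 0.00974) and -0.77 ± 0.30 (adjusted p = 0.0224). Those arrays are the extremes of this probe set, so leaving them out narrows its spread by that choice. The p-values without 1 or all of them therefore do not establish a call. With all arrays and centring, Dlgap1 1429105_at was 0.59 and 0.55 above the references, with no call. Dlgap1 1438098_at differed from whole brain by -0.05 ± 0.20 (adjusted p = 0.802) and from supernatant by -0.59 ± 0.25 (adjusted p = 0.0334), which turned to 0.48 after quantile normalization and 0.58 after centring.

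Dlgap2 1439767_at measures a paralogue of the same adaptor. It ranged from 8.15 to 9.91 (median 8.79) in pull-down after sleep deprivation and from 6.91 to 9.67 (median 8.70) in pull-down control. The supernatants read 10.10, 10.39, 10.20 and 10.48, and the 8 whole-brain arrays lay between 9.09 and 9.38. The groups ordered as supernatant, whole brain and pull-down, with no overlap between supernatant and either of the others. The pull-down was lower than supernatant by -1.57 ± 0.32 (adjusted p = 0.000105). The difference from whole brain, -0.54 ± 0.25, lay at the threshold (adjusted p = 0.0501), and so did that of whole brain from supernatant, -1.02 ± 0.34 (adjusted p = 0.0528). Without the 3 arrays that stood apart, the pull-down was lower than whole brain by -0.58 ± 0.17 (adjusted p = 0.00276). Those arrays hold the highest and the lowest pull-down value here, so leaving them out narrows the spread by that choice. That p-value therefore does not settle the call. The difference also passed without any 1 of pull-down arrays 1 and 3 after sleep deprivation and controls 3, 4 and 9, with -0.58 to -0.66. Each of these arrays lay above the pull-down mean of 8.73, so leaving it out lowers that mean by that choice. These passes do not settle the call either. On the centred scale the sign turned, to 0.61 ± 0.34, with no call (adjusted p = 0.109).

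Dlgap3 1436381_at measures the adaptor known for its high level in striatum and for compulsive grooming of mice that lack it. It ranged from 5.20 to 7.19 (median 5.46) in pull-down after sleep deprivation and from 5.02 to 6.46 (median 5.79) in pull-down control. The supernatants read 7.58, 7.39, 8.07 and 7.38, and the 8 whole-brain arrays lay between 7.12 and 7.47. The pull-down reached whole brain with 1 array, number 1 after sleep deprivation. The difference was -1.56 ± 0.23 from whole brain (adjusted p = 7.6e-07) and -1.85 ± 0.29 from supernatant (adjusted p = 2.57e-06).

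All 3 probe sets of Dlg4, the core scaffold, were lower in the pull-down than in both references as deposited, though Dlg4 1419580_at turned to 0.029 and 0.025 from whole brain under quantile normalization and centring. Dlg4 1419581_at ranged from 5.70 to 8.57 (median 6.38) in pull-down after sleep deprivation and from 5.96 to 7.75 (median 6.32) in pull-down control. The supernatants read 9.64, 9.77, 10.26 and 9.66, whole brain after sleep deprivation 9.13, 9.11, 8.99 and 8.72, and whole-brain control 8.94, 9.13, 9.04 and 9.07. The 2 highest pull-down values came from the arrays that stood apart, and even these were below every reference array. The difference was -2.43 ± 0.26 from whole brain (adjusted p = 4.05e-09) and -3.25 ± 0.33 from supernatant, a fold of 9.51 (adjusted p = 2.39e-09). Dlg4 1419580_at and Dlg4 1460261_at differed less, by -1.13 ± 0.21 and -1.18 ± 0.18 from whole brain (adjusted p = 2.82e-05 and 1.05e-06) and by -1.48 ± 0.27 and -1.25 ± 0.22 from supernatant (adjusted p = 2.07e-05 and 1.62e-05). Of the 15 probe sets, 6 had all pull-down arrays below all whole-brain arrays (27.5% of all probe sets) and 0 had them above (3.35%). Against supernatant, 9 had them below (32.1%) and 1 above (6.39%).

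Scaling changed the size of these differences and, for some members, the call. Quantile normalization moved the median difference of all probe sets from -0.78 to 0.09 against whole brain and from -0.85 to 0.02 against supernatant. Centring each array on its median moved them to 0.37 and 0.32. The share of calls over all probe sets that were higher in pull-down went from 9.55% as deposited to 55.2% and 73.9% against whole brain, and from 14.2% to 49.6% and 70.2% against supernatant. Among member probe sets with a call, more were lower than higher on each scale. Against whole brain 9 were lower and 2 higher after quantile normalization (26.2% and 32.3% of all), and 6 were lower and 2 higher after centring (18.3% and 52% of all). Against supernatant 9 were lower and 1 higher after quantile normalization (27.6% and 27.2% of all), and 6 and 1 after centring (18.8% and 44.1% of all). The median of the members lay below that of all probe sets by -0.59, -0.51 and -0.59 against whole brain under the deposited, quantile and centred scale, and by -0.71, -0.90 and -0.71 against supernatant. This gap was smaller on the deposited scale once probe sets with low values were filtered out, at -0.37 against whole brain and -0.48 against supernatant.

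Under all 3 scalings, 6 of the 15 probe sets were lower than both references, beside 13.6% of all probe sets, and 0 were higher than both (7.2%). These 6 were Shank1 1444240_at, Shank3 1419137_at, Dlgap1 1440639_at, Dlgap1 1443508_at, Dlgap3 1436381_at and Dlg4 1419581_at. On the centred scale Dlgap1 1440639_at was still lower than whole brain by -1.68 ± 0.19 (adjusted p = 1.03e-07), Shank3 1419137_at by -1.41 ± 0.26 (adjusted p = 4.93e-05) and Dlg4 1419581_at by -1.28 ± 0.29 (adjusted p = 0.000469). Calls nearer the threshold there were Shank1 1444240_at at -0.38 ± 0.15 (adjusted p = 0.032), Dlgap1 1443508_at at -0.33 ± 0.13 (adjusted p = 0.0317) and Dlgap3 1436381_at at -0.41 ± 0.18 (adjusted p = 0.0461). From supernatant, centred, Dlgap1 1443508_at was again near it (adjusted p = 0.0478), while Shank1 and Dlgap3 had adjusted p = 0.000145 and 0.0128. The receptor did not keep its calls: centred, Grm5 1455272_at differed from whole brain by -0.38 ± 0.35 (adjusted p = 0.344) and Grm5 1456119_at by 0.26 ± 0.36 (adjusted p = 0.534). Dlg4 1460261_at, centred, differed from whole brain by -0.026 ± 0.11 (adjusted p = 0.844). Dlgap1 1436076_at was higher than whole brain on both other scales, by 0.50 ± 0.15 (quantile, adjusted p = 0.00546) and 1.47 ± 0.23 (centred, adjusted p = 7.78e-06), and so was Dlgap1 1438098_at, by 0.95 ± 0.21 (adjusted p = 0.000356) and 1.10 ± 0.23 (adjusted p = 0.000245).

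**Figure D2:**
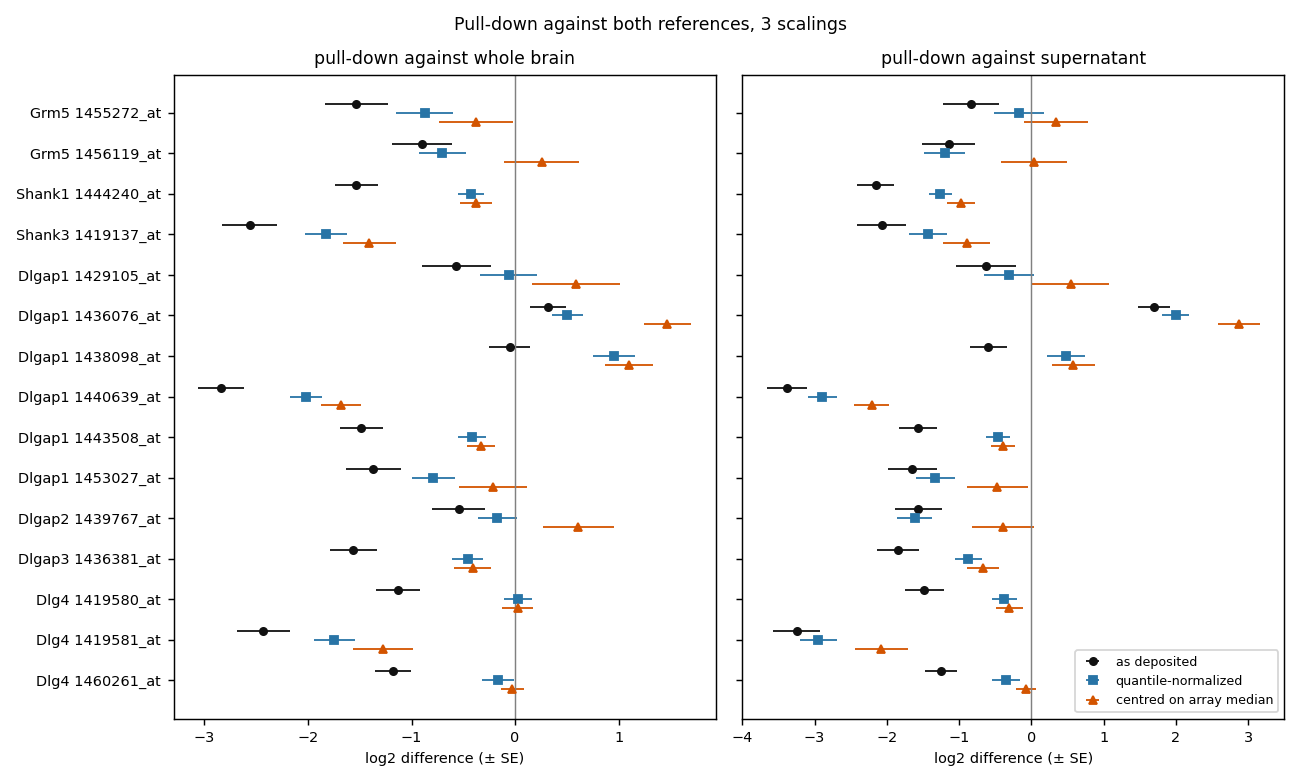
Log2 difference of pull-down from whole brain (left) and from supernatant (right) for the 15 probe sets (vertical axis); points are limma estimates on the deposited, quantile-normalized and median-centred scale and bars are ± SE. Shank3, Dlgap1 1440639_at and Dlg4 1419581_at stay left of 0 on all 3 scales in both panels, and Dlgap1 1436076_at stays right of it.

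Probe sets of 1 gene were then compared within an array, where a shift of the whole array cancels on the log2 scale. The sources used here do not say which exon or transcript end a probe set reads. The genes Grm5, Dlgap1 and Dlg4 gave 19 pairs, which share probe sets, out of 30372 same-gene pairs on the array. The difference of Dlgap1 1436076_at minus 1440639_at averaged 3.76 ± 0.88 (SD) over the 12 pull-down arrays, which ran from 2.14 to 4.82. The 8 whole-brain arrays averaged 0.60 ± 0.25 and ran from 0.29 to 1.04, and the 4 supernatants averaged -1.32 ± 0.55 and ran from -2.13 to -0.92. The 3 extracts did not overlap, and the pull-down shifted by 3.15 ± 0.31 (SE) from whole brain and by 5.08 ± 0.39 from supernatant (limma adjusted p = 3.74e-09 and 8.81e-11, over all same-gene pairs). This pair had the largest shift of the 19 against both references. It joins the member probe sets with the highest and the lowest difference in both comparisons, so a large shift followed from its choice.

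The difference of Dlg4 1419580_at minus 1419581_at averaged -0.96 ± 0.78 in the pull-down arrays, -2.26 ± 0.24 in those of whole brain and -2.73 ± 0.18 in the supernatants (SD, 12, 8 and 4 arrays). The shifts were 1.30 ± 0.26 and 1.77 ± 0.33 (adjusted p = 0.000131 and 5.31e-05), and the pull-down arrays overlapped whole brain but not supernatant. A second Dlgap1 pair, 1429105_at minus 1453027_at, averaged 0.66 ± 0.45 in pull-down, -0.14 ± 0.16 in whole brain and -0.36 ± 0.35 in supernatant, with overlap and with shifts of 0.80 ± 0.18 and 1.02 ± 0.22 (adjusted p = 0.000363 and 0.000328). The difference of Grm5 1455272_at minus 1456119_at was -2.02 ± 0.32 in pull-down, -1.39 ± 0.16 in whole brain and -2.33 ± 0.32 in supernatant. Its shift from whole brain was -0.63 ± 0.15 (adjusted p = 0.000677), and -0.17 after quantile normalization (adjusted p = 0.365). From supernatant it was 0.31 ± 0.19 (adjusted p = 0.159), and 1.02 after quantile normalization (adjusted p = 9.96e-05).

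Over all 19 pairs, 14 shifted at an adjusted p under 0.05 against whole brain and 14 against supernatant, beside 64.9% and 66.2% of all same-gene pairs. Pairs whose pull-down arrays did not overlap the reference numbered 2 and 7, beside 25.4% and 36.4%. Without the 3 arrays that stood apart they numbered 9 and 12, beside 39.8% and 48.8%. The median absolute shift was 1.30 against whole brain and 1.77 against supernatant, where that of all pairs was 0.78 and 1.02. Shifts between probe sets of a gene were thus common on these arrays. The share of pairs called was near the background, while the median shift was larger. Pairs without overlap against whole brain were fewer with all arrays, but not without the 3 arrays that stood apart. Those arrays stood apart partly by the members' own values, so leaving them out can favour the members over all pairs. Most of the 19 pairs share the 6 probe sets of Dlgap1, so these values speak mainly for that gene. The 3′ minus 5′ difference of Gapdh also moved between the extracts, as given above, and its part in these shifts was not tested.

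**Figure D3:**
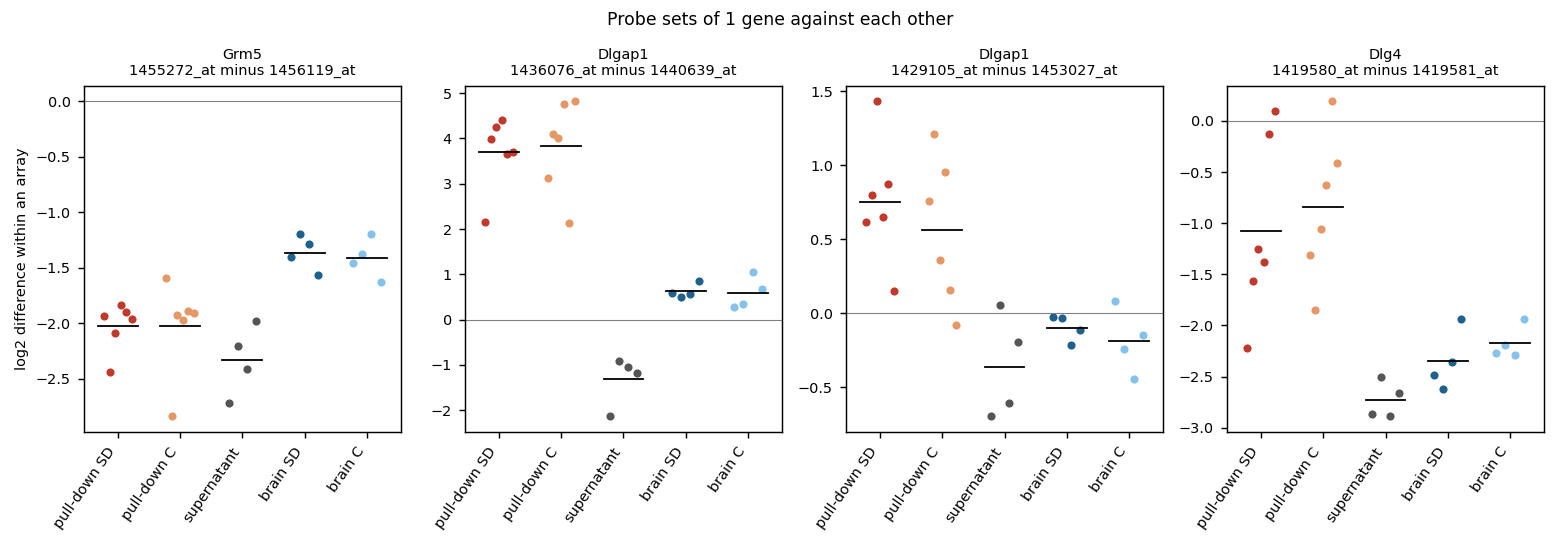
Log2 difference within an array between 2 probe sets of 1 gene (vertical axis, own scale per panel) in the 5 groups; points are arrays and lines group means, SD is after sleep deprivation and C is control. In the Dlgap1 1436076_at minus 1440639_at panel the pull-down points lie above all whole-brain points and these above all supernatants, and in the Dlg4 panel the pull-down points are above all supernatants.

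Probe sets of the complex's partners were called in both directions, as were those of all genes. A list of 28 postsynaptic density genes had 24 genes with 75 probe sets, of which 12 were higher and 51 lower than whole brain, and 16 higher and 46 lower than supernatant (limma; backgrounds as given above for the members). After quantile normalization the counts were 22 and 36, then 23 and 37, and after centring 31 and 25, then 28 and 29. Of the 24 genes, 7 had probe sets called both ways against whole brain and 9 against supernatant, so single probe sets do not speak for a gene. How many of all genes were called both ways was not counted, so these counts are not set against a background. Highest against whole brain were Sipa1l1 1439755_at, a spine-associated Rap regulator, at 1.43 ± 0.19 (adjusted p = 2.22e-07), and the Homer1 probe sets 1436387_at at 1.42 ± 0.20 (adjusted p = 5.43e-07) and 1439662_at at 1.38 ± 0.15 (adjusted p = 1.13e-08). Yet 3 of the 4 probe sets of Sipa1l1 and 2 of the 6 of Homer1 were lower there. Lowest were single probe sets of Tnik, a kinase of the postsynaptic density, at -3.96, Nlgn1, an adhesion molecule, at -3.91, and Camk2b, a calcium-dependent kinase subunit, at -3.40. Against supernatant the highest were probe sets of Cttn, which binds Shank and actin, at 2.58, Sipa1l1 at 2.48 and Homer1 at 2.40, each a gene with 3 probe sets called lower. The lowest were of Tnik at -3.61, Nlgn1 at -3.27 and Cnksr2, another scaffold, at -3.25. Each of these probe sets kept its direction and its call under all 3 scalings.

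Probe sets of the signalling genes downstream of the receptor were called both ways as well. Of 15 listed genes, 12 had 37 probe sets. Against whole brain 10 were higher and 23 lower, and against supernatant 10 and 24, with 14 and 16, then 12 and 18, after quantile normalization and 15 and 13, then 14 and 10, after centring. Of all probe sets, 8.06% were higher and 76.3% lower than whole brain, and 11.2% and 67.4% than supernatant, as deposited. In each comparison 8 of the 12 genes had probe sets in both directions. The share of all genes called both ways was not counted. For Grasp, which encodes a scaffold that binds group I metabotropic receptors, 1 probe set was higher than whole brain by 2.06 ± 0.30 (adjusted p = 6.79e-07) and higher than supernatant by 3.08 ± 0.37 (adjusted p = 5.69e-08), and the other 2 were lower than both. The same held for Eef2k, the elongation factor kinase, with 1 probe set higher by 1.90 and 2.13 and 2 lower, and for Fmr1, the RNA-binding protein of fragile X syndrome, with 1 higher by 1.12 and 2.45 and 2 lower. Plcb1 and Plcb4, phospholipase C enzymes that act on Gq signals, each had 4 probe sets lower and 1 higher than either reference. Their lowest probe sets differed by -3.37 and -3.98 (Plcb1) and by -3.38 and -3.59 (Plcb4). Gna11, a Gq-family subunit, had 1 of 2 probe sets lower, by -2.68 and -3.34. The higher probe sets of Grasp and Eef2k are of a kind that can match several transcripts (suffix _s_at). These largest differences of the 6 genes kept their calls under the 3 scalings.

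Cell type markers were mostly lower in the pull-down too, as were 76.3% of all probe sets against whole brain. The mean level of 15 neuronal probe sets lay between 8.29 and 10.14 in pull-down, 10.03 and 10.36 in supernatant and 10.35 and 10.48 in whole brain, with 1 higher and 9 lower than whole brain. The 19 astrocyte probe sets lay between 7.28 and 7.93 in pull-down and 9.08 and 9.19 in whole brain (0 higher, 15 lower). The 18 of oligodendrocytes lay between 7.80 and 8.86 against 10.23 and 10.36 (0 higher, 16 lower), the 8 of microglia between 4.80 and 5.59 against 6.62 and 7.00 (0 higher, 8 lower), and the 9 of endothelial cells and pericytes between 4.34 and 5.41 against 7.34 and 7.64 (0 higher, 9 lower). Against supernatant 4 neuronal probe sets were higher and 9 lower, 4 and 12 of astrocytes, 3 and 13 of oligodendrocytes, 0 and 7 of microglia, and 0 and 9 of endothelial cells and pericytes. Of all probe sets, 11.2% were higher and 67.4% lower there. On the centred scale the counts against whole brain were 6 higher and 7 lower for neurons, 4 and 8 for astrocytes, 3 and 11 for oligodendrocytes, 0 and 5 for microglia and 0 and 9 for endothelial cells and pericytes. On that scale 52% of all probe sets were higher than whole brain and 18.3% lower. The part of cell mixture in the members' differences was not tested.

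The probe sets closest in pattern to Grm5 1456119_at over the 5 group means, after each was set to its own mean, were those of Tceanc2, Tcp11x2 and Lonp2, at root mean square distances of 0.0137, 0.0137 and 0.0151 log2 units. Closest to Dlg4 1419581_at were Sec14l1, Prnp and Fscn1, at 0.027, 0.029 and 0.0358. For example, Prnp averaged 6.45 in the sleep-deprived and 6.37 in the control pull-down, 9.67 in supernatant, and 8.76 in sleep-deprived and 8.83 in control whole brain. These distances describe 5 points each.

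Homer1a is known to be induced by wakefulness, and comparing sleep deprivation with undisturbed sleep asks whether transcripts of its partner proteins differ too. Within the pull-down, 0 of the 15 probe sets passed the test (limma, 6 against 6 arrays), as did 0% of all probe sets. At an unadjusted p under 0.05 there were 0 of the 15 and 430 of all. The differences ran from -0.45 for Dlg4 1460261_at to 0.43 for Dlgap2 1439767_at, with SEs between 0.27 and 0.51. The lowest bound of any 95% interval was -1.03 (Dlg4 1460261_at) and the highest 1.28 (Dlgap2 1439767_at). A difference within the interval of a probe set is not excluded by these arrays. The groups overlapped for each of the 15, where 0.04% of all probe sets had every sleep-deprived array higher and 0.0178% had every one lower.

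Dlgap2 1439767_at was 8.94 ± 0.74 (SD, n = 6) after sleep deprivation and 8.52 ± 0.92 (n = 6) in control, a difference of 0.43 ± 0.41 (SE, limma adjusted p = 1). Without the 3 arrays that stood apart it was 0.12 ± 0.31. Dlg4 1460261_at was 6.37 ± 0.53 after sleep deprivation and 6.81 ± 0.39 in control, a difference of -0.45 ± 0.28 (adjusted p = 1), with 1 of 6 sleep-deprived arrays above the control mean. The receptor probe sets Grm5 1455272_at and Grm5 1456119_at differed by -0.08 ± 0.44 and -0.07 ± 0.44, Shank1 by -0.05 ± 0.33 and Shank3 by -0.07 ± 0.42 (adjusted p = 1 for each).

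In whole brain the same contrast was far tighter, with SEs between 0.11 and 0.19, and 0 of the 15 passed (limma, 4 against 4 arrays), beside 0.0355% of all probe sets that were higher and 0.0111% that were lower. At an unadjusted p under 0.05 there was 1 of the 15, beside 4926 of all, or 10.9%. That was Dlgap1 1438098_at, which read 5.33, 5.76, 5.04 and 5.17 after sleep deprivation (arrays 18 to 21) and 6.45, 5.82, 5.61 and 5.67 in control (arrays 22 to 25). Every sleep-deprived array was below the control mean, but array 19 lay above 2 controls. The difference was -0.57 ± 0.19 (limma adjusted p = 0.349). The other 5 probe sets of Dlgap1 ranged from -0.27 for 1443508_at to 0.09 for 1429105_at. No member had groups without overlap, where 1.75% of all probe sets had every sleep-deprived array higher and 4.25% had every one lower.

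Members other than Dlgap1 differed by at most 0.10 in either direction in whole brain, apart from Dlg4 1419580_at. Grm5 1455272_at differed by 0.03 ± 0.11 and Grm5 1456119_at by -0.02 ± 0.12, with 95% intervals of -0.21 to 0.27 and -0.28 to 0.23. Shank1 differed by 0.08 ± 0.12 (interval -0.18 to 0.35), Shank3 by 0.10 ± 0.14 (-0.21 to 0.40), Dlgap2 by 0.03 ± 0.11 (-0.21 to 0.27) and Dlgap3 by -0.05 ± 0.12 (-0.30 to 0.21). Dlg4 1419581_at differed by -0.06 ± 0.12 (-0.31 to 0.20) and Dlg4 1419580_at by -0.24 ± 0.13 (-0.51 to 0.03). A difference beyond these bounds lies outside what the whole-brain arrays allow at 95% for that probe set. In the list of postsynaptic partners, 2 probe sets passed in whole brain, both of Homer1, with 1436387_at higher by 0.85 ± 0.13 (adjusted p = 0.0406) and 1425671_at by 0.84 ± 0.13 (adjusted p = 0.0408). They also passed after quantile normalization, centring, array weights, an intensity trend and a filter on low values (limma adjusted p = 0.00133 to 0.0328). Their estimates lay between 0.74 and 0.97 in all alternatives. Both calls were lost in 1 fit of all 24 arrays (adjusted p = 1) and when any 1 of 7 of the 8 arrays was left out (adjusted p = 0.0898 to 0.156), and both held without control 22.

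The effects in the 2 extracts were set against each other by an interaction contrast on their 20 arrays. In limma 0 of the 15 passed, as did 0% of all probe sets, and 0 of the 15 had an unadjusted p under 0.05, beside 152 of all. The estimates ran from -0.44 for Dlg4 1460261_at to 0.39 for Dlgap2 1439767_at, with 95% intervals between -1.38 and 1.52.

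**Figure D4:**
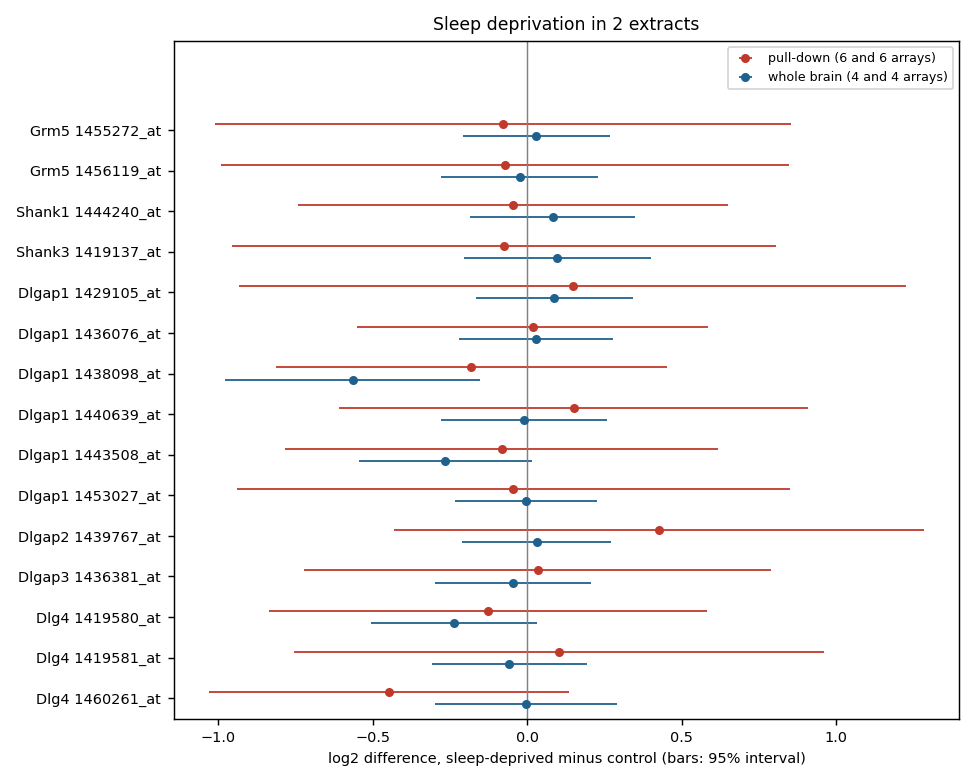
Log2 difference between sleep-deprived and control arrays (horizontal axis) for the 15 probe sets (vertical axis) in pull-down (6 and 6 arrays) and whole brain (4 and 4 arrays); points are limma estimates and bars 95% intervals. The whole-brain bars are the shorter at each probe set, and of all bars only that of Dlgap1 1438098_at in whole brain does not cross 0.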

How the data were processed

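Per the submitters' processing notes the arrays were processed with RMA in the affy package. The authors deposited log2 intensities per probe set. No versions are given, and no genome positions are printed because no build is given for the probe sets in the sources used here. The labels name an amplification kit for the immunoprecipitated RNA alone, so amplification and extract cannot be told apart.

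The table held 45101 probe sets. Of these, 64 controls were left out and 45037 tested, of which 34945 had 1 gene symbol, 932 several and 9160 none in an array annotation of 2016. Values were used as deposited, without scaling or filter. Groups came from the titles. No array pair held identical values (highest r = 0.991).

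Models were fitted with limma 3.58.1 (R 4.3.3, lmFit and eBayes, two-sided) with Benjamini-Hochberg adjustment over all probe sets and a threshold of 0.05. Pull-down was compared with whole brain and supernatant in 1 fit of 24 arrays and 5 groups, with sleep-deprived and control groups weighted equally. Sleep deprivation was tested on the arrays of 1 extract, and the difference of effects by an interaction. Same-gene pairs were fitted in the same way on their within-array differences, adjusted over 30372 pairs, a comparison chosen after seeing the data. The scripts were tested on simulated data.

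Members and lists were chosen with earlier results of these data known. All probe sets of the members are named. Of a list, at most the 3 largest differences past the threshold in each direction were named per comparison. The 3 closest genes in pattern were named for the Grm5 and Dlg4 probe sets with the highest whole-brain mean. Alternatives were quantile normalization, median centring, array weights, an intensity trend, a filter on low values, other samples in the fit, leaving out 3 pull-down arrays (after sleep deprivation 1, controls 3 and 11), and leaving out each array.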

Additional observations from a re-analysis of the deposited data

Results flagged for a closer look

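Of the 75 combinations of probe set and group, 3 had an array far from the rest of its group, where chance gives about 1 in 20. Grm5 1455272_at read 8.81 on pull-down after sleep deprivation 1, while the other 5 arrays of that group lay between 6.22 and 7.16. Dlg4 1419581_at read 8.57 on the same array, with the others between 5.70 and 6.67. Dlg4 1419581_at also read 7.75 on pull-down control 3, with the others between 5.96 and 6.60. These are the 2 arrays with the highest 18S ribosomal RNA signal among the pull-downs. They also hold the highest pull-down values of both probe sets. Leaving them out lowers the pull-down mean and narrows the spread by that choice, so the differences from whole brain given next do not strengthen a call. Without them and pull-down control 11, Dlg4 1419581_at was lower than whole brain by -2.74 ± 0.14 and Grm5 1455272_at by -1.78 ± 0.20, and the sleep deprivation difference in pull-down was -0.05 ± 0.26 and -0.26 ± 0.28 (limma adjusted p = 1 for each).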

How the results depend on the processing

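Of 1890 recomputed differences of single members, 1663 kept their direction and their side of the threshold. With the sign kept, 30 lost a call and 30 gained one. Another 9 changed sign and were called before or after the change but not both, and 158 that were never called changed sign. The cause was not tested for any of these. Against whole brain, members called higher went from 0 to 2 after quantile normalization, 2 after median centring, 1 with array weights and 1 without the 3 pull-down arrays that stood apart, and from 0 to 1 when single arrays were left out (1 without pull-down control 11). Of all probe sets, 32.3%, 52%, 9.4%, 8.69% and 8.72% were higher in these settings, in that order. Members called lower went from 11 to 6 after centring (18.3% of all), and against supernatant from 13 to 6 (18.8% of all). The 9 changes of sign with a call were, against whole brain, Grm5 1456119_at at 0.26 (centring), Dlgap1 1438098_at at 0.95 (quantile normalization) and 1.10 (centring), and Dlg4 1419580_at at 0.029 and 0.025. Of these, Dlgap1 1438098_at gained a call and the others lost theirs. Against supernatant the changes were Grm5 1455272_at at 0.34 and 1456119_at at 0.034 (centring), and Dlgap1 1438098_at at 0.48 and 0.58, and each lost its call. Leaving out single arrays ended the call of Dlgap1 1438098_at against supernatant in 5 cases, with an adjusted p of up to 0.131 without supernatant 16. Between whole brain and supernatant, members called lower went from 0 to 4 (quantile normalization), 5 (array weights), 1 (intensity trend) and 1 (filter). Of all probe sets tested, 9.61%, 13.3%, 1.93% and 3.64% were lower in these settings, in that order. All calls, higher and lower together, went from 4913 to 9482 (quantile normalization) and 13843 (array weights), with 3022 to 4324 when single arrays were left out (3022 without supernatant 13). For sleep deprivation in pull-down, calls over all probe sets went from 0 to 2 with array weights and 3 in 1 fit of all 24 arrays, and 0 to 1 when single arrays were left out (1 without control 8). In whole brain they went from 21 to 48 (quantile normalization), 46 (centring), 59 (intensity trend), 40 (filter) and 0 (1 fit of all 24 arrays), and 1 to 16 when single arrays were left out (1 without sleep-deprived 19 or 21, and 6 to 13 without sleep-deprived 18 or 20 or control 22, 24 or 25). No member was called for sleep deprivation under any of these. Of 760 recomputed shifts between probe sets of 1 gene, under alternatives chosen after seeing the data, 554 kept their call and sign, 193 had no call in either setting (19 of them with the sign changed), 7 gained one and 6 lost one. The counts of the gene lists under other scalings were also chosen after seeing the data. No paired analysis was possible because the groups compared share fewer than 2 numbers in their titles. Arrays have no read depth, and their number limits the precision.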
